A study of Homo sapiens with 3 samples.

Results

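The genes described here are 10 components of the machinery that carries a cell through G1, the phase between division and DNA replication: the cyclins CCND1, CCND2, CCND3, CCNE1 and CCNE2, the kinases CDK4 and CDK6, the inhibitors CDKN1A and CDKN1B, and RB1. They were chosen by symbol, as 10 rows of a deposited table with 30866 distinct gene symbols, and each stood on 1 row. RNA was sequenced from HCC827, an established human non-small cell lung cancer line that depends on a mutant EGF receptor. All 3 populations came from a polyclonal pool carrying the ClonTracer barcode library, so all groups share the transduction. The vehicle group had been kept in 0.1% DMSO for 4 days. The erlotinib-resistant group had spent 47 days in 2 µM erlotinib, an EGF receptor kinase inhibitor. The dual-resistant group was taken from that resistant population by another 10 days in 2 µM erlotinib plus 0.2 µM crizotinib, a MET kinase inhibitor. Each group is 1 library. No difference below therefore has an error estimate or a test, and drug, length of culture and selection cannot be told apart.

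In G1, growth signals raise D-type cyclins, which activate CDK4 and CDK6. These kinases phosphorylate RB1 and its relatives, which otherwise hold E2F transcription factors inactive, and E-type cyclins with CDK2 complete that step and start replication. The INK4 proteins inhibit CDK4 and CDK6, while the CIP/KIP proteins p21 (CDKN1A) and p27 (CDKN1B) act chiefly on CDK2 complexes and also help cyclin D complexes to assemble. In lung cancers driven by the EGF receptor, blocking the receptor is known to lower cyclin D1 and to arrest cells in G1.

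Levels are given as FPKM, that is, fragments scaled by transcript length in kilobases and per 1000000 mapped. Differences are log2 differences of FPKM + 1, and folds are on the same scale, which understates the differences of low genes. A gene is counted as higher or lower at a log2 difference of 1 or more, that is 2-fold. A gene entered the comparisons if any library had it at 1 FPKM or more. Of the 10 genes 9 passed that filter, and CCND2 did not. Of the members above 1 FPKM in every library, CCNE1 had the lowest single value, 1.91 FPKM in vehicle. In dual-resistant cells CDKN1A was lower than CCNE1, at 3.44 against 5.48 FPKM.

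Among the 10, CDK6 and CDKN1A had the widest ranges over the 3 libraries of the genes never listed at 0, in opposite directions, and CCNE1 was the other member counted as higher in the dual-resistant library than in vehicle. These 3 and CCND1 were picked by name, and CCND1 had no entry among the start regions. CCND3 and CCND1 also had wider ranges (1.65 and 1.24) than CCNE1 (1.15). The start regions of CDK6, CDKN1A and CCNE1 are printed here. They come from RefSeq (GRCh38.p14, a later build than that of the deposited table), 250 bases before to 50 after a gene start, 5′ to 3′ on the gene's strand. Capitals mark GC boxes, the letters GGGCGG on either strand. The CDK6 region is chr7:92836524-92836823 on the minus strand, the first of 2 starts listed. The CDKN1A region is chr6:36678464-36678763 on the plus strand, and the CCNE1 region is chr19:29811741-29812040 on the plus strand.
CDK6: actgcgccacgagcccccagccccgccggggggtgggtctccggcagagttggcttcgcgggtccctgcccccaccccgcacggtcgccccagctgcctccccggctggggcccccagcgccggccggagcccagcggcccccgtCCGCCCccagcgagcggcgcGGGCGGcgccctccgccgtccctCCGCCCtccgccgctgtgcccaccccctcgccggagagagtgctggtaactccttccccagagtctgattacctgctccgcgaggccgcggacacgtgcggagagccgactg
CDKN1A: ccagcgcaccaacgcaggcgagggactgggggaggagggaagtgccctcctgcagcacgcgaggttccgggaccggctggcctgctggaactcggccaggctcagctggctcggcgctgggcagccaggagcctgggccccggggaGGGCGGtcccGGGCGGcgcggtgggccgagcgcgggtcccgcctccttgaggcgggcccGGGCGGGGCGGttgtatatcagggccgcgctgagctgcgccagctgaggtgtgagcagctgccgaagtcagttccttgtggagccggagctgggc
CCNE1: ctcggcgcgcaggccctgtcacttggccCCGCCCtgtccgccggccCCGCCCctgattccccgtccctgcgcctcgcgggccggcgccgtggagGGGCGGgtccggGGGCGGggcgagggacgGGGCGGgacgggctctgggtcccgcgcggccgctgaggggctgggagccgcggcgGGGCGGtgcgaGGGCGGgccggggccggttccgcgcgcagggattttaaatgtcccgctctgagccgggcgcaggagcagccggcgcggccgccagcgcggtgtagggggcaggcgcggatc

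GC boxes numbered 3 in the CDK6 region, 4 in that of CDKN1A and 7 in that of CCNE1. In CDKN1A the last 2 share a base. Of the 10 genes 7 had an entry in the table by symbol. The box was found 5 times in CCND3, 3 times in CDK4, 1 time in CDKN1B and 0 times in RB1. It is a common element, present in 44.6% of 27305 RefSeq start regions of the same length. The other motifs searched, on both strands, had no match in these 7 windows. They were the E2F words TTTCCCGC, TTTCGCGC, TTTGCCGC and TTTGGCGC (3.33% of all regions hold at least 1), the TATA box TATAAA (12.0%), the CRE TGACGTCA (1.98%), the AP-1 word TGACTCA (4.92%) and the ETS word CCGGAAGT (4.44%). A match describes letters only, and a missing match says only that these letters are not in the window.

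**Figure D1:**
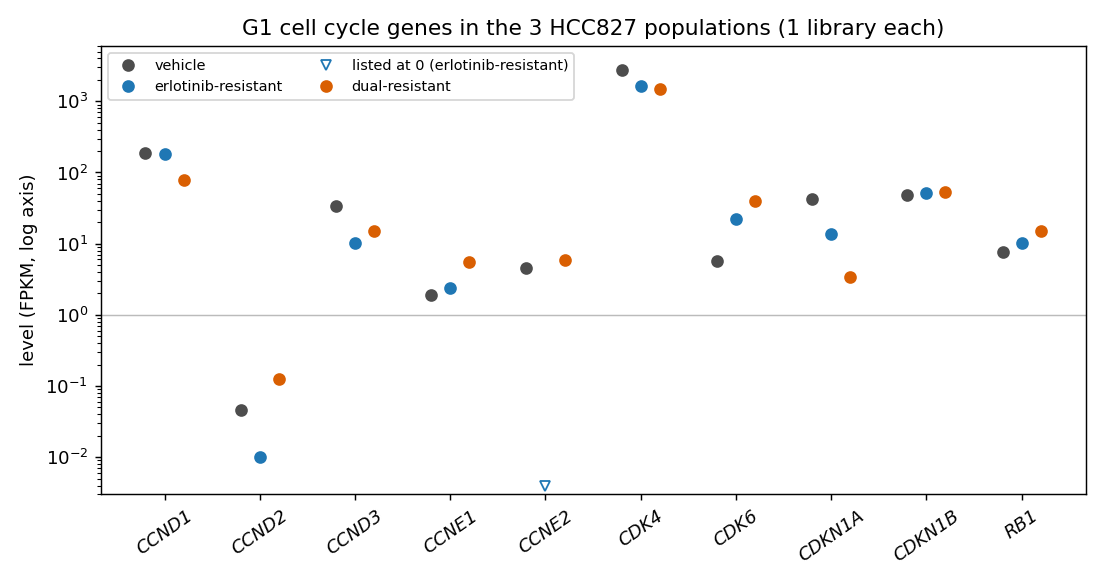
Level of each of the 10 genes (FPKM, log axis) in the vehicle, erlotinib-resistant and dual-resistant libraries, 1 point per library, with a grey line at 1 FPKM and an open triangle where a gene is listed at 0. CDK4 lies between 1471 and 2791 FPKM, while CCND2 stays at or under 0.124; CDK6 is highest and CDKN1A lowest in the dual-resistant library.

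The D-type cyclins bind CDK4 and CDK6 and link them to growth signals. CCND1, which encodes cyclin D1 (Entrez ID 595, GRCh37 chromosome 11 from 69455873 to 69469242), had 186 FPKM in vehicle cells, 181 in erlotinib-resistant cells and 78.3 in dual-resistant cells. It was thus at about the same level before and after erlotinib selection and 2.30-fold lower after the second drug was added. In bulk RNA such as this, fewer cells with a transcript and less of it per cell cannot be told apart. The log2 difference between erlotinib-resistant and vehicle was -0.04 as deposited, 0.13 with each library scaled to the same FPKM sum and 0.01 at the same upper quartile, so its sign is not fixed. Between dual-resistant and erlotinib-resistant it was -1.20. Against vehicle the dual-resistant value was -1.24, and -0.97 with equal sums, just inside the limit.

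CCND3, which encodes cyclin D3 (Entrez ID 896, GRCh37 chromosome 6 from 41902671 to 42016610), followed another order. It stood at 34.0, 10.2 and 14.9 FPKM in vehicle, erlotinib-resistant and dual-resistant cells. Its level was 3.13-fold lower in the erlotinib-resistant than in the vehicle library, and the later log2 difference of 0.51 was within the limit. The dual-resistant library stayed 2.20-fold under vehicle, with a log2 difference of -1.14 that became -0.88 at equal sums and -0.97 with a pseudocount of 5. CCND2, which encodes cyclin D2 (Entrez ID 894, GRCh37 chromosome 12 from 4382902 to 4414522), was listed at 0.0466, 0.0100 and 0.124 FPKM. Using an approximate worth of 1 fragment and the gene's longest coding transcript, that is about 20.4, 3.06 and 34.6 fragments, too few for a comparison.

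Set side by side per length, CCND1 made up most of the D-type cyclin RNA in every library. Its share of the summed FPKM of the 3 genes was 84.6% in vehicle, 94.7% in erlotinib-resistant and 83.9% in dual-resistant cells. CCND3 held 15.4%, 5.32% and 16.0%. The sum itself was 220, 191 and 93.4 FPKM, so the erlotinib-resistant library had nearly the vehicle sum with less CCND3, and the dual-resistant library had a lower sum with the vehicle proportions.

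**Figure D2:**
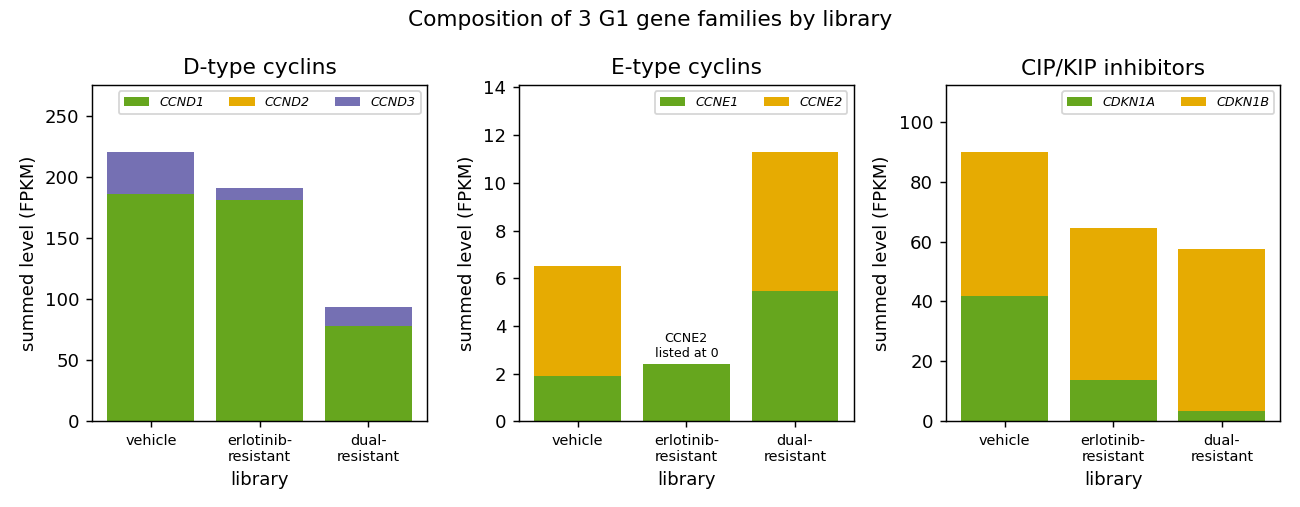
Stacked levels (FPKM, from 0) of the D-type cyclins, the E-type cyclins and the CIP/KIP inhibitors in each library, 1 library per bar. The D-type sum goes from 220 to 93.4 FPKM between vehicle and dual-resistant cells, and CDKN1A shrinks from 42.0 to 3.44 FPKM under a CDKN1B layer that stays between 47.8 and 54.0.

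Of the kinases that D-type cyclins activate, CDK4 had far more RNA than CDK6 in every library. CDK4 (Entrez ID 1019, GRCh37 chromosome 12 from 58141510 to 58146230) stood at 2791 FPKM in vehicle, 1648 in erlotinib-resistant and 1471 in dual-resistant cells. By level it ranked 20 among all genes in vehicle cells, 45 in erlotinib-resistant and 41 in dual-resistant cells. Against vehicle, CDK4 was 1.69-fold lower in erlotinib-resistant cells and 1.90-fold lower in dual-resistant cells, both within the 2-fold limit. The other kinase, CDK6 (Entrez ID 1021, GRCh37 chromosome 7 from 92234235 to 92465941), stood at 5.64, 21.9 and 40.3 FPKM. It was higher in each later population: 3.44-fold in erlotinib-resistant cells against vehicle, 1.80-fold in dual-resistant against erlotinib-resistant cells, and 6.21-fold in dual-resistant cells against vehicle. The middle step, a log2 difference of 0.85, lay within the limit. As CDK4 was lower and CDK6 higher, the level of CDK4 relative to CDK6 went from 494 to 75.3 to 36.5, and CDK6 made up 0.202%, 1.31% and 2.67% of their summed FPKM. CDK4 remained the major kinase RNA in all 3 libraries.

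E-type cyclins activate CDK2 late in G1. CCNE1 (Entrez ID 898, GRCh37 chromosome 19 from 30302901 to 30315215) stood at 1.91 FPKM in vehicle, 2.40 in erlotinib-resistant and 5.48 in dual-resistant cells, about 264, 230 and 483 fragments by the same approximation. The dual-resistant level was 2.22-fold that of vehicle. That difference of 1.15 on the log2 scale was 0.60 with a pseudocount of 5, and the difference from erlotinib-resistant cells was 0.93 as deposited, 1.02 at equal sums and 1.16 with a pseudocount of 0.1. CCNE2 (Entrez ID 9134, GRCh37 chromosome 8 from 95892453 to 95907482) stood at 4.60 FPKM in vehicle and 5.80 in dual-resistant cells, a log2 difference of 0.28, and had a value of 0 in erlotinib-resistant cells. Of 8227 genes at 5 FPKM or more in both other libraries, a set without CCNE2, 11 had a 0 in erlotinib-resistant cells. Whether the 0 of CCNE2 is a failed estimate or a missing transcript cannot be told from these values. No fold is therefore given for CCNE2 against that library. Its row also shares 269 bases with INTS8, a subunit of the Integrator complex, which was at 27.9, 40.8 and 26.3 FPKM.

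The inhibitors of the CIP/KIP family parted. CDKN1A, which encodes p21 (Entrez ID 1026, GRCh37 chromosome 6 from 36644237 to 36655116), stood at 42.0, 13.7 and 3.44 FPKM in vehicle, erlotinib-resistant and dual-resistant cells. Each later population had less. The level was 2.92-fold lower in erlotinib-resistant cells than in vehicle, 3.32-fold lower in dual-resistant than in erlotinib-resistant cells, and 9.68-fold lower in dual-resistant cells than in vehicle. Only 1.02% of the genes compared had a more negative difference in that last comparison, a description of these libraries. CDKN1B, which encodes p27 (Entrez ID 1027, GRCh37 chromosome 12 from 12870302 to 12875305), stood at 47.8, 50.9 and 54.0 FPKM, with log2 differences of 0.17 or less in all comparisons as deposited. CDKN1B thus held 53.2%, 78.8% and 94.0% of the summed FPKM of the pair.

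RB1, the retinoblastoma protein that D-type cyclin kinases phosphorylate (Entrez ID 5925, GRCh37 chromosome 13 from 48877883 to 49056026), stood at 7.63, 10.1 and 14.9 FPKM. It was 1.85-fold higher in dual-resistant cells than in vehicle, within the limit as deposited, at a log2 difference of 0.89, and past it at equal sums, at 1.13. LPAR6, a receptor gene inside the RB1 row, was at 0.0950 FPKM or less in every library.

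Ordered by level per length, vehicle cells had CDK4, CCND1, CDKN1B, CDKN1A, CCND3, RB1, CDK6, CCNE2, CCNE1 and CCND2. In dual-resistant cells CDK6 had moved up to the fourth place and CDKN1A down to the ninth, ahead of CCND2 alone. RB1 and CCND3 were level there, at 14.94 and 14.92 FPKM. Without replicates no neighbouring pair in these orders can be tested.

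Counted together, 1 of the 9 genes compared (11.1%, CDK6) was higher in erlotinib-resistant cells than in vehicle, where 3.81% of all genes compared were. Lower were 3 of 9 (33.3%), CCND3, CDKN1A and CCNE2, the last by its value of 0, against 6.03% of all genes. The median log2 difference of the 8 members not listed at 0 was 0.02, and that of all genes compared was 0.00. In dual-resistant against erlotinib-resistant cells, 1 of 9 was higher, CCNE2 with its 0, where 10.1% of all genes were, and 2 of 9 (22.2%), CCND1 and CDKN1A, were lower, where 7.22% were. The members not listed at 0 had a median of 0.30 and all genes one of -0.03. In dual-resistant cells against vehicle, 2 of 9 (22.2%), CDK6 and CCNE1, were higher, where 11.0% of all genes were, and 3 of 9 (33.3%), CCND1, CCND3 and CDKN1A, were lower, where 10.4% were. The medians were 0.17 for the members and -0.01 for all genes. At equal FPKM sums the members in this last comparison became 3 higher (RB1 joining), where 15.3% of all genes were, and 1 lower (CDKN1A; 11.1%), where 7.89% were. The comparisons share libraries, so their values are not independent of each other.

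**Figure D3:**
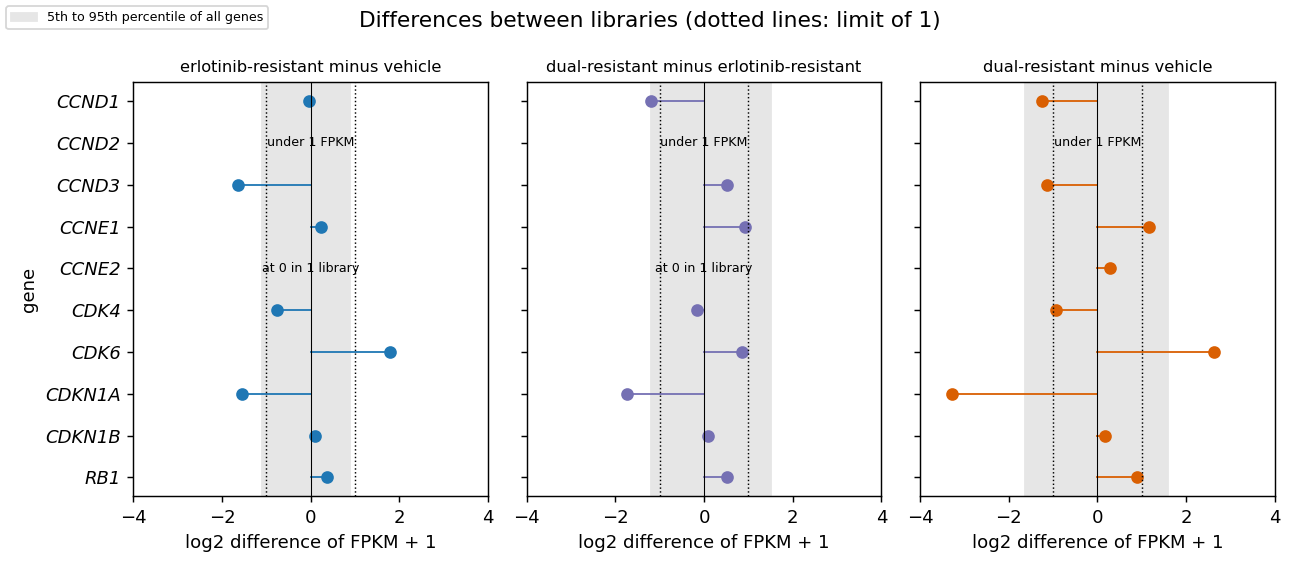
Log2 difference of FPKM + 1 for each of the 10 genes in the 3 comparisons, with dotted lines at the limit of 1 and a grey band from the 5th to the 95th percentile of all genes compared. CDK6 reaches 2.64 and CDKN1A -3.28 in dual-resistant cells against vehicle; CCND2 was under 1 FPKM and CCNE2 had a 0 in erlotinib-resistant cells.

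Chromosome neighbours were read for each member, taking the 5 nearest genes on each side that reached 5 FPKM in any library. CDK4 stood beside 2 other genes of high level. OS9, which encodes a lectin of the endoplasmic reticulum (chromosome 12, before CDK4), was at 2314 FPKM in vehicle, 1434 in erlotinib-resistant and 1606 in dual-resistant cells. TSPAN31, a tetraspanin gene adjacent to CDK4, was at 405, 275 and 201 FPKM. In the vehicle library the other 8 neighbours were all at 33.9 FPKM or less. Like CDK4, these 2 genes were lower in erlotinib-resistant cells than in vehicle, by -0.69 and -0.56 on the log2 scale against -0.76 for CDK4, all within the limit. TSPAN31 and CDK4 share 517 bases, and whether the libraries kept strand is not given in the sources used here, so reads from that stretch cannot be told apart. In dual-resistant against erlotinib-resistant cells 4 of the 10 neighbours were higher and 0 lower. Of 10232 genes under the same filter at 5 FPKM, 915 were higher and 786 lower. ARHGEF25 and B4GALNT1, which lie before OS9, were at 40.9 FPKM against 1.33 and at 11.7 against 1.14. LOC100130776, between OS9 and CDK4, was at 126 FPKM against 31.2. MIR26A2, a short microRNA gene whose FPKM is unreliable, was at 354 against 0. ARHGEF25, B4GALNT1 and MIR26A2 were under 5 FPKM in vehicle and erlotinib-resistant cells. Only their dual-resistant level brought them into the set, so the count of 4 partly reflects the filter. DNA copy number was not analysed here.

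Around CDK6 the neighbours also leaned upward in the erlotinib-resistant library, with a median log2 difference of 0.58 over 10 genes against 1.78 for CDK6. ANKIB1 (15.1 FPKM in vehicle, 34.9 in erlotinib-resistant cells) was past the limit. TFPI2, a protease inhibitor gene, was lower, at 9.30 FPKM against 21.7. From erlotinib-resistant to dual-resistant cells the neighbours had a median of -0.24, while CDK6 itself had 0.85. For CDKN1A the neighbours' medians were -0.07, -0.12 and -0.22 in the 3 comparisons, against -1.55, -1.73 and -3.28 for the gene. Around CCND3 they were -0.24, -0.06 and -0.25, and around CCND1 -0.20, 0.19 and 0.20. Around CDKN1B they were 0.22, 0.66 and 0.86, and around CCND2 0.04, 0.38 and 0.53. Around CCNE1 they were 0.12, -0.06 and 0.07, around CCNE2 0.14, -0.15 and 0.004. For RB1 they were 0.30, -0.13 and 0.18, for CDK4 -0.14, 0.06 and -0.13. Between the resistant libraries 3 neighbours of CDKN1B were higher and 0 lower, against 915 and 786 of 10232 genes at 5 FPKM. APOLD1, 1 of the 3, reached 5 FPKM in dual-resistant cells alone.

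**Figure D4:**
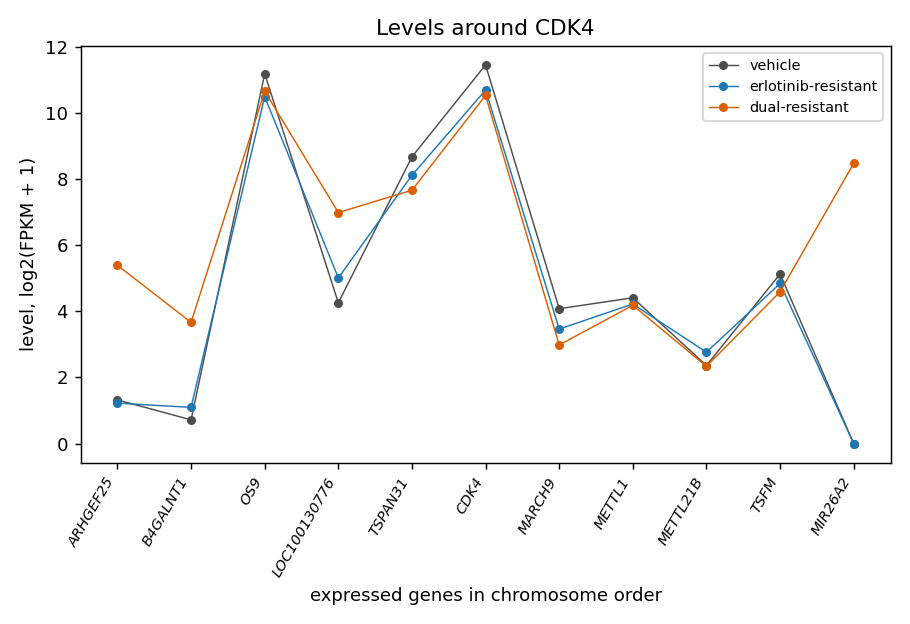
Levels as log2(FPKM + 1) of CDK4 and its 10 expressed neighbours in chromosome order, 1 line per library. OS9, TSPAN31 and CDK4 stand at 201 FPKM or more in every library; MIR26A2, at 0 in 2 libraries, is a microRNA gene whose short length makes its FPKM unreliable.

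The genes whose profile over the 3 libraries lay nearest to a member were found by distance in centred log2(FPKM + 1) among 10213 others. Nearest to CDKN1A were FMO5, a flavin monooxygenase gene (16.9, 4.93 and 0.889 FPKM), and PLSCR1, a phospholipid scramblase gene (271, 87.6 and 28.2 FPKM), at distances of 0.0565 and 0.0901. Nearest to CDK6 were NEURL, at 0.502, 3.60 and 8.11 FPKM, and the transcription factor gene ETS1, at 15.7, 56.2 and 91.4 FPKM, at distances of 0.126 and 0.133. For CCND3 they were EPOR, the erythropoietin receptor gene, and GSTP1, a glutathione transferase gene, at 0.0956 and 0.100. With 3 libraries many genes share a shape: 43 lay within 0.5 of CDKN1A, 37 of CDK6 and 140 of CCND3.

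Among 13 other G1 regulators compared, none was lower by the limit in any comparison, and 1 was higher, CDKN2C. This INK4 inhibitor, p18, stood at 0.948, 1.70 and 5.31 FPKM in vehicle, erlotinib-resistant and dual-resistant cells. The list's medians were 0.09, -0.09 and -0.05 in the order of the comparisons above. In that order 3.81%, 10.1% and 11.0% of all genes were higher and 6.03%, 7.22% and 10.4% lower. RBL2, the pocket protein p130, was at 15.3, 27.7 and 14.7 FPKM. MNAT1, an assembly factor of the kinase that activates cyclin-dependent kinases, was at 25.0, 23.3 and 12.8 FPKM, and the inhibitor gene CDKN1C (p57) at 10.8, 8.71 and 16.8. CDKN2A and CDK2 were singled out after their values were seen. CDKN2A, whose locus encodes the INK4 inhibitor p16 and the unrelated protein ARF, stood at 275, 344 and 210 FPKM, and 1 row cannot separate the 2 products. CDK2, the partner of the E-type cyclins, stood at 12.8, 13.1 and 13.0 FPKM.

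Of the E2F and DP factors 9 were compared. E2F7, a repressive member, was higher in each comparison, at 0.658 FPKM in vehicle, 2.45 in erlotinib-resistant and 6.06 in dual-resistant cells. E2F4, a partner of the pocket proteins in resting cells, was at 71.2, 75.5 and 32.9 FPKM and was lower in dual-resistant cells than in the other populations, except against vehicle at equal sums, where 0 factors were counted as lower. The other 7 stayed within the limit, TFDP2 and E2F5 among them. E2F1, named after its value was seen, was at 7.15, 6.09 and 7.71 FPKM.

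Of 16 genes that E2F switches on at entry into S phase, 4 were higher in erlotinib-resistant cells than in vehicle and none lower, with a median of 0.34. They were TYMS, the thymidylate synthase gene, the cyclin A2 gene CCNA2, the replication licensing gene CDT1 and the helicase subunit gene MCM7. In dual-resistant against erlotinib-resistant cells TYMS was higher and CDT1 lower, with a list median of 0.36. Against vehicle 4 were higher in dual-resistant cells (TYMS, CCNA2, TK1 and RRM1) and none lower, with a median of 0.45. Of all genes compared, 3.81%, 10.1% and 11.0% were higher in these comparisons and 6.03%, 7.22% and 10.4% lower. TYMS stood at 5.54, 20.0 and 54.6 FPKM, CCNA2 at 6.62, 17.6 and 23.6, and CDT1 at 8.74, 19.9 and 7.06. RRM1, a subunit of ribonucleotide reductase, stood at 11.3, 20.7 and 25.3 FPKM.

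A list of 10 genes of mitosis and proliferation held mitotic cyclins and kinases and also TOP2A, MKI67 and CDC20, which are neither. Of the 10, 8 were higher in erlotinib-resistant cells than in vehicle, 0 in dual-resistant against erlotinib-resistant cells and 9 in dual-resistant cells against vehicle, with medians of 1.44, 0.11 and 1.54, and none was lower. The shares of all genes that were higher were 3.81%, 10.1% and 11.0%, and of those lower 6.03%, 7.22% and 10.4%. TOP2A, the topoisomerase of dividing cells, stood at 14.1, 88.2 and 73.5 FPKM, and the proliferation marker gene MKI67 at 1.72, 7.80 and 9.86. CDC20 stood at 24.1, 93.1 and 78.9 FPKM and BUB1 at 5.82, 17.6 and 22.9. The summed level of the 10 genes was 130, 399 and 377 FPKM. It moved with CDK6 and against CDKN1A between vehicle and erlotinib-resistant cells, and the share of dividing cells was not measured, so its part in those differences was not tested.

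Proteins that mark G1 cyclins and p27 for destruction had RNA levels within the limit throughout: 0 of 10 were higher or lower in each comparison as deposited. By comparison, 3.81%, 10.1% and 11.0% of all genes were higher and 6.03%, 7.22% and 10.4% lower. SKP2, the receptor subunit of the ligase that targets p27, stood at 6.93, 8.92 and 10.6 FPKM, its cofactor CKS1B at 45.7, 58.1 and 34.4, and SKP1 at 100.1, 76.2 and 109.9. CUL1, the scaffold of that ligase, stood at 19.0, 19.1 and 37.7 FPKM, a log2 difference of 0.95 between dual-resistant and vehicle cells, which passed the limit under both other scalings.

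CDKN1A is a classical target of p53, so 20 other p53 targets were read beside it. In erlotinib-resistant cells against vehicle none was higher and 1 lower (TP53I3, a count of 0 at equal sums), with a median of -0.03 as deposited and 0.13 at equal sums. In dual-resistant against erlotinib-resistant cells 2 were higher (PLK2 and TP53INP1) and 1 lower (TNFRSF10B), with a median of 0.08. In dual-resistant cells against vehicle 1 was higher and 3 lower, with a median of -0.16 as deposited and 0.06 at equal sums. The 3 were BBC3, which encodes the death protein PUMA (23.5, 14.9 and 7.47 FPKM), SESN2 (30.2, 17.9 and 9.82) and BTG2 (8.42, 5.44 and 2.88). PLK2 was higher, at 19.8, 15.2 and 115 FPKM. In the same order of comparisons, 3.81%, 10.1% and 11.0% of all genes were higher and 6.03%, 7.22% and 10.4% lower. The counts among the 20 targets were near those shares. MDM2, the ligase for p53 itself and named after its value was seen, was at 7.92, 7.59 and 4.77.

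Factors that carry growth signals to the cyclin D1 gene went in several directions. Of 10, 2 were higher in erlotinib-resistant cells than in vehicle, FOSL1 and ETS1, and 3 lower, EGR1, JUN and JUNB. At equal sums these counts were 3, with MYC joining, and 3. In dual-resistant against erlotinib-resistant cells 0 were higher and 2 lower, ETV4 and ETV5, transcription factors induced by ERK signalling. Against vehicle 1 was higher in dual-resistant cells, ETS1, and 6 lower, with a median of -1.26, and 5 were lower at equal sums. As deposited, 3.81%, 10.1% and 11.0% of all genes were higher in these comparisons and 6.03%, 7.22% and 10.4% lower. ETV4 stood at 26.6, 21.3 and 2.08 FPKM and ETV5 at 21.0, 18.5 and 2.88. EGR1 stood at 452, 42.0 and 26.0 FPKM. MYC, named after its value was seen, was at 201, 360 and 310.

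**Figure D5:**
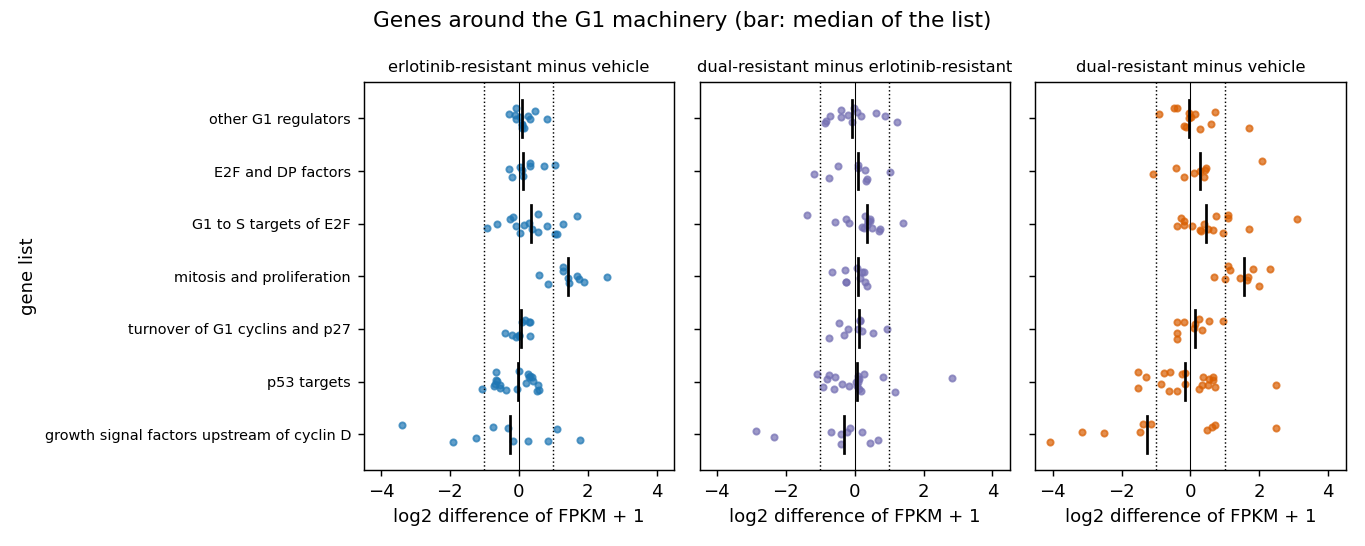
Log2 difference of FPKM + 1 for each gene of 7 lists around the G1 machinery in the 3 comparisons, 1 point per gene with small vertical scatter, black bars at the list medians and dotted lines at the limit. The list of mitosis and proliferation genes has medians of 1.44 and 1.54 against vehicle and 0.11 between the resistant libraries, while the genes for turnover of G1 cyclins and p27 stay within the limit as deposited.

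The libraries as a whole bear on these values. The FPKM sums were 596084, 528920 and 494817, and 12386, 12143 and 12428 genes had at least 1 FPKM. By an approximation from single-exon genes, a 1 kb gene at 1 FPKM corresponds to some 67.6, 47.0 and 43.1 fragments. Equal sums moved the median of all genes by 0.14 in erlotinib-resistant cells against vehicle and by 0.23 in dual-resistant cells against vehicle. They moved the counts of genes higher and lower from 510 and 807 to 741 and 640, and from 1470 and 1397 to 2047 and 1056. In the 3 comparisons 0 of 11 reference genes passed the limit as deposited, with medians of -0.02, 0.20 and 0.25, and 1 was higher in dual-resistant cells than in vehicle under either scaling. List medians near 0 can therefore change sign with the scaling. All 8 lung epithelial markers were present in every library, with summed levels of 5235, 5322 and 2330 FPKM. Of all genes compared, 7.22% were lower in dual-resistant than in erlotinib-resistant cells and 10.4% lower than in vehicle. In dual-resistant cells 5 of these 8 markers were lower than in each other library, EPCAM at 306, 345 and 41.1 FPKM among them. This moved with the lower CCND1 and CDKN1A there, and its part in those differences was not tested. Of 6 leukocyte markers only CD14 reached 1 FPKM, in vehicle alone (4.10), and PTPRC was at 0.137 FPKM or less. The 4 endothelial markers summed to 1.38 FPKM or less.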

How the data were processed

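Processed values were used as deposited by the authors, 1 FPKM column for each of the 3 libraries. Per the submitters' processing notes, reads went through TopHat 1.3 and Cufflinks 1.3 with GRCh37. Gene set, settings and strand handling were not given in the sources used here. Columns hold 35, 25 and 36 missing cells, left out as missing. Rows with the same symbol were summed, and log2 differences were taken after adding a pseudocount of 1 FPKM, for genes that reached 1 FPKM in any library. Starts were taken to count from 0 in the table and are printed from 1.

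The FPKM values deposited hold no counts, so depth is only approximate. The 1st percentile of FPKM times length over single-exon coding genes of 1 to 5 kb was taken as the worth of 1 fragment, with symbols from GENCODE 29. Short transcripts and genes sharing sequence are less certain.

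The members, the 11 gene lists and the motifs were chosen with earlier results of these data known. All members are named. For each list up to 4 genes with the widest difference are named, with any gene needed to spell out a small count. Nearest profiles were taken for 3 members and 2 genes each. Alternatives were 2 scalings, pseudocounts of 0.1 and 5, a filter at 5 FPKM or none, and a limit of 1.5-fold. Some single-gene values are not reported here. Leaving out genes listed at 0 was added after the data were seen. The calling step was tested on simulated data. Python 3.11.15, pandas 2.3.3, numpy 2.4.6 and matplotlib 3.10.9 were used.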

Additional observations from a re-analysis of the deposited data

How the results depend on the processing

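With 1 library per group there is no replicate error, and values near 1 FPKM rest on the fewest fragments. No paired analysis was possible because each group has 1 library and the result comes from no test. The members' log2 differences, without those of CCNE2 that involve its value of 0, were recomputed under 2 scalings and 2 pseudocounts, which gave 100 values. Of these, 93 kept their side of the limit, 7 did not, and no called value changed sign. The 2 changes of sign were both of CCND1 in erlotinib-resistant cells against vehicle. With a pseudocount of 5, members lower in erlotinib-resistant cells against vehicle were 2 of 9, as CCNE2 was no longer counted. Of all 13381 genes compared there, 355 were lower. The members counted as higher in dual-resistant against erlotinib-resistant cells were 2 of 9 at equal FPKM sums, where 1522 of 13385 genes (11.4%) were. They were 2 of 9 with a pseudocount of 0.1, against 1731 of 13385 genes, and 3 of 9 at a limit of 1.5-fold, against 2473. Without genes listed at 0 they were 0 of 8, against 1240 of 13051 genes (9.50%). In dual-resistant cells against vehicle 1 of 9 members was lower at equal sums, where 7.89% of all genes were. With a pseudocount of 5, 1 of 9 was higher, against 686 of 13378 genes. Over all genes, a pseudocount of 5 gave 167 higher and 355 lower in erlotinib-resistant cells against vehicle, 592 and 457 in dual-resistant against erlotinib-resistant cells, and 686 and 747 in dual-resistant cells against vehicle. A limit of 1.5-fold gave 1661 and 1917, 2473 and 2266, and 2767 and 2751 in the same order. A pseudocount of 0.1 gave 856 higher in erlotinib-resistant cells against vehicle. The shares within the cyclin and kinase families did not move when only the longest row of each symbol was taken, since each member has 1 row.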
